A study of Mus musculus with 25 samples.

Results

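Of 25 single neurons picked from tissue of the mouse hypothalamus that held the arcuate nucleus with the median eminence, 7 had RNA of Lhx1 at 10 RPKM or more (RPKM, read numbers scaled by exon length and by the mapped reads of the cell), and they are compared here with the other 18. The 7 are cells 3, 5, 8, 11, 12, 15 and 26 by the numbers in the sample names. The groups were made from the measured level of Lhx1 alone, so Lhx1 only defines them and is no finding. All other genes were measured in the same cells, and the pattern was already known from earlier work on this table. For that reason every difference below is a description, without a test, standard error or p-value. The cells are also not replicates of a condition, since they come from 1 pool.

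All 25 cells share 1 preparation. They came from 2 male mice, of the strain (C57BL/6 x DBA)F2 and on average 63 days old, both carrying RIP-Cre, a transgene in which a rat insulin promoter drives Cre recombinase. An adeno-associated virus (AAV) carried green fluorescent protein (GFP) behind a stop cassette that Cre removes, so GFP marks cells in which the transgene was active and which the virus had entered. There is no wild-type, untreated or GFP-negative group. The labels do not say which cell came from which mouse. Green cells were picked by hand from papain-treated tissue, and each was made into a Smart-Seq2 library of polyadenylated RNA. That method reads transcripts over their length, does not mark the strand and carries no molecular tags. It captures only part of the RNA of a cell, so a value of 0 does not show that a transcript was absent.

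Lhx1 encodes a LIM-homeodomain transcription factor that directs the formation of the head organiser and of several classes of neuron, and in the adult hypothalamus it is best known from the suprachiasmatic nucleus, the circadian clock. Dopamine is made from tyrosine by tyrosine hydroxylase (Th) and aromatic amino acid decarboxylase (Ddc), with a pterin cofactor whose synthesis starts at GTP cyclohydrolase (Gch1), and it is loaded into vesicles by the vesicular monoamine transporter (Slc18a2). Dopamine neurons of the arcuate nucleus are known for restraining the release of prolactin from the pituitary, and part of them also make GABA. Dlx genes encode homeodomain factors of GABA neurons in the forebrain.

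The level of Lhx1 was 42.2 RPKM in cell 3, 70.2 in cell 5, 14.3 in cell 8, 87.2 in cell 11, 107 in cell 12, 11.5 in cell 15 and 34.9 in cell 26. It was listed at 0 in all 18 other cells. No cell lay between 0 and 10 RPKM, so the cells nearest to the threshold were cells 15 and 8 on the inside and 18 cells at 0 on the outside. The lowest of the 7 levels stood on an estimated 95.9 reads, and the highest number was 1061 reads in cell 11. In the other cells 1 read of Lhx1 would have been worth 0.0909 to 0.277 RPKM, well under the threshold.

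Both groups were neurons by their markers, and their depths overlapped, with a higher median in the Lhx1 cells. Of 12 neuronal markers, 8 to 12 were at 10 RPKM or more in the Lhx1 cells (median 10) and 8 to 12 in the other cells (median 10). Of 28 markers of microglia, astrocytes, oligodendrocytes and their precursors, vessels, tanycytes, ependyma and pituitary cells, at most 1 reached 10 RPKM in an Lhx1 cell and at most 2 in another cell. Their summed level was 0 to 25.5 RPKM (median 0.24) in Lhx1 cells and 0 to 96.4 RPKM (median 22.3) in the others, and 16 of the 28, among them C1qa, Mog, Pdgfra and Cldn5, were at 0 in every cell. The estimated number of reads ran from 1528000 to 2988000 in Lhx1 cells (median 2055000) and from 885800 to 2701000 in the other cells (median 1708000). Genes at 10 RPKM or more numbered 4350 to 6015 in Lhx1 cells (median 4896) and 3843 to 6183 in the others (median 4924). Malat1, a nuclear RNA whose loss can accompany poor cell quality, was under 20 RPKM in 2 of 7 Lhx1 cells (cells 3 and 5) and in 4 of 18 others (cells 1, 6, 29 and 31). The part of depth, other cell types and RNA quality in the differences was not tested.

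Differences are given as the mean of log2(RPKM + 1) over the Lhx1 cells minus that over the other cells, and a gene was counted as higher or lower where this difference was at least 2 in size. The comparison covered 9783 genes that reached 10 RPKM in at least 3 cells. Some, among them Lhx1os, Sp9, Smad7 and Trpc6, met this filter through Lhx1 cells alone and so could not be counted as lower. Of the 9783 genes, 379 (3.87%) were higher in the Lhx1 cells and 232 (2.37%) lower, and the median difference over all genes was 0.03. These 2 shares belong beside the counts of each list below. With 10 RPKM required in at least 5 cells, 340 genes were higher and 232 lower. The 15 genes with the largest differences upward were Lhx1os, Th, Gpr83, Slc18a2, Coch, Lhx1 itself, Dlx5, Gm9866, Fstl4, Tgfb2, Sp9, Ucp2, Id4, Clybl and Cacng3. Downward they were Fxyd7, Cbln4, Thy1, Gpr101, H2-Q2, Slc12a5, Sstr1, Ncam2, Gpr165, Ppm1m, Tmem158, Thap7, Tbx3, Enox2 and Crtac1. Without the 6 cells with little Malat1, 682 genes were higher and 238 lower, of which 283 and 140 were among those counted with all cells.

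**Figure D1:**
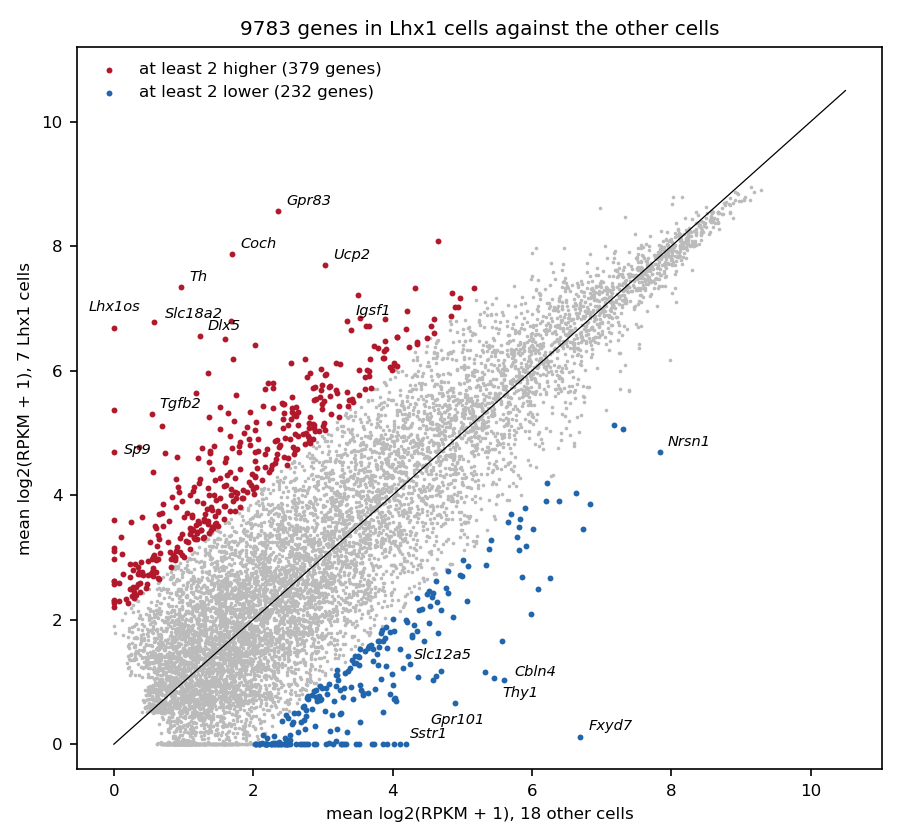
Mean log2(RPKM + 1) of each of 9783 genes in the 7 Lhx1 cells (vertical axis) against the 18 other cells (horizontal axis), each point 1 gene, with the diagonal marking equal means. The 379 genes at least 2 higher are red and the 232 genes at least 2 lower are blue; Lhx1os, Th, Gpr83, Slc18a2 and Coch lie far above the diagonal, and Fxyd7 and Nrsn1 far below it.

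A stricter count asked that no value of one group reach the other group. By this count 6 of 9783 genes (0.0613%) were separated upward, namely Lhx1os, Gpr83, Slc18a2, Coch, Igsf1 and Lhx1 itself, and 1 gene (0.0102%) was separated downward, Nrsn1. Lhx1 is in this count, in the count of higher genes and in the next count because the rule places it there. With 20 RPKM of Lhx1 as the rule, cells 8 and 15 join the other group, and of these 6 genes only Lhx1 and of the downward 1 none was then separated. Another count used detection, at 10 RPKM or more in at least 6 of 7 Lhx1 cells and in at most 3 of 18 others. It held 10 genes (0.102%): Lhx1os, Th, Slc18a2, Lhx1, Dlx5, Tgfb2, Sp9, Ndor1, Exosc8 and Hist1h2bc. The reverse count, detection in at most 1 of 7 Lhx1 cells and in at least 12 of 18 others, held 33 genes (0.337%), with Fxyd7, Cbln4, Thy1, Gpr101, H2-Q2 and Slc12a5 at its head. H2-Q2, Hist1h2bc and Gm9866 belong to families or loci with near-identical sequences whose reads could have been split in counting, and their values are uncertain.

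The gene next to Lhx1 followed it. Lhx1os, a long noncoding RNA, was at 52.3 to 201 RPKM in the 7 Lhx1 cells (median 104) and was listed at 0 in all 18 others. The groups did not overlap, and the level of Lhx1os was above that of Lhx1 in each of the 7 cells. In GENCODE M21 (GRCm38) Lhx1 lies on the minus strand at chr11:84518284-84525535 and Lhx1os on the plus strand at chr11:84525660-84535831, so the 2 genes are read away from each other and their annotated exons do not overlap. In RefSeq (GRCm38.p6) 125 bases lie between the start sites. The stretch below, chr11:84525510-84525684, minus strand, is shown because this shared interval separates 2 RNAs that were found together in 7 cells and in no other. It runs from 150 bases before the Lhx1 start to 25 bases after it, the last 25 being the first bases of exon 1, and capitals mark the bases between the start sites.
Lhx1: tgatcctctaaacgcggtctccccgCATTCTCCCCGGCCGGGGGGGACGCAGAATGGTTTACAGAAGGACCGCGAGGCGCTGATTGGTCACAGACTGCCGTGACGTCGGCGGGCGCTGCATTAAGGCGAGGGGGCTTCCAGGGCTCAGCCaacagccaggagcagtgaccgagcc
Of 10 other genes within 500 kb of Lhx1 that were compared, none passed 2 in either direction. Over all genes the shares were 3.87% higher and 2.37% lower, so this count over 10 genes says little about the neighbours. Aatf, a nuclear cofactor gene, was highest at 1.94, above the 95th percentile of all genes (1.85). Tada2a, a subunit gene of histone acetyltransferase complexes, was lowest at -1.17, inside the 5th percentile (-1.57).

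Th and Slc18a2 were already known as markers of these cells, so a list of dopamine genes was bound to hold higher members. Of 13 genes for making, storing, clearing and breaking down dopamine, 11 were compared, with a median difference of 1.42. In Lhx1 cells 5 were higher (Th, Ddc, Gch1, Slc18a2 and Maob) and none was lower, beside 3.87% and 2.37% over all genes. Th was at 186 RPKM in cell 3, 0 in cell 5, 294 in cell 8, 354 in cell 11, 784 in cell 12, 695 in cell 15 and 268 in cell 26. Elsewhere Th reached 10 RPKM only in cell 1 (318 RPKM) and cell 43 (248 RPKM), and the difference of mean log2 levels was 6.37. So 6 of 7 Lhx1 cells and 2 of 18 others carried Th, shares of 85.7% (exact Clopper-Pearson 95% interval 42.1 to 99.6%) and 11.1% (1.38 to 34.7%). The intervals speak only of counting error among the cells that were picked.

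Slc18a2 was the storage gene common to all 7. Its level was 223 RPKM in cell 3, 66.1 in cell 5, 46.6 in cell 8, 197 in cell 11, 127 in cell 12, 112 in cell 15 and 92.7 in cell 26. The highest values outside were 28.2 RPKM in cell 24 and 19.5 in cell 29, so the groups did not overlap, with a difference of 6.20 on the log2 scale. Cells 1 and 43, the other cells with Th, had Slc18a2 at 0, and Gch1 at 0 as well.

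The remaining genes of the pathway followed less closely. Ddc was at 113 to 366 RPKM in 6 Lhx1 cells and at 0 in cell 5, but 12 of the other 18 also had it at 10 RPKM or more (median of the 18, 75.9 RPKM, highest 189), and its difference was 2.07. Gch1 was at 27.5 to 102 RPKM in 5 Lhx1 cells, 5.52 RPKM in cell 15 and 0.07 in cell 5, against 4 of 18 other cells at 10 RPKM or more and a highest value of 31.5 RPKM. Maob, a monoamine oxidase that degrades amines, ranged from 0 in cell 26 to 261 RPKM in cell 5 and reached 322 RPKM outside. The cofactor recycling genes Qdpr and Pcbd1 were at 10 RPKM or more in all 7 Lhx1 cells and in 17 and 16 of the 18 others, with differences of 0.27 and 1.26. The plasma membrane dopamine transporter Slc6a3 was high in only 2 Lhx1 cells, at 66.9 RPKM in cell 11 and 157 in cell 12, and at 0 in the other 5, while outside it did not exceed 4.12 RPKM.

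Among the Lhx1 cells, cell 5 stood apart in this pathway: Th, Ddc and Maoa were at 0, Gch1 at 0.07 RPKM and Gad2 at 0.51 RPKM. The same cell had Slc18a2 at 66.1 RPKM, Dlx5 at 123 RPKM, Gpr83 at 329.7 RPKM and Coch at 213 RPKM. It was also one of the 2 Lhx1 cells with Malat1 under 20 RPKM, at 16.6 RPKM, and had 4515 genes at 10 RPKM or more, the second lowest of the 7. Cell 3, the other one with little Malat1, had Th at 186 RPKM and Slc18a2 at 223 RPKM, the highest of the 7.

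Promoter sequences are shown for Th and Slc18a2 because these enzyme and transporter genes were found together in 6 Lhx1 cells, and because a search for the cyclic AMP response element found it in both. The letters searched were TGACGTCA, which read the same on both strands, in the 250 bases before to 50 after each RefSeq start (GRCm38.p6). Below are 150 bases before to 25 after the start, the last 25 lying in exon 1, with the motif in capitals. Th is at chr7:142899971-142900145 on the minus strand, with the motif at -45 to -38 from the start, and Slc18a2 at chr19:59260728-59260902 on the plus strand, with the motif at -4 to 4 across the start (there is no position 0).
Th: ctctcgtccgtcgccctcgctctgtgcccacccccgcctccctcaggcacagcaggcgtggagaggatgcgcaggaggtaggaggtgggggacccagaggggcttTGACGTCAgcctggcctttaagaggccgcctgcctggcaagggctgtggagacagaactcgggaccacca
Slc18a2: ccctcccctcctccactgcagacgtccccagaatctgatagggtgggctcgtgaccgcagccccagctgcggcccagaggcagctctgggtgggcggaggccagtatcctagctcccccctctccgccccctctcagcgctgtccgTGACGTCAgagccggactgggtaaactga
The motif was in the promoters of 2 of 8 genes with an entry among those common in Lhx1 cells and rare elsewhere, in 0 of 25 among the reverse set, and in 549 of 27025 genes overall (2.03%). The homeodomain core TAATTA, also the same on both strands, was in 0 of 8, 0 of 25 and 1655 of 27025 (6.12%). A match describes letters in this window and does not show that a factor binds there.

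Of 17 genes for other transmitters, only 5 were compared, with a median difference of -0.16. None of the 5 passed 2 in either direction, beside 3.87% and 2.37% over all genes, so this count says little about transmitter genes. The GABA-synthesising enzyme Gad1 was at 75.3 to 130.4 RPKM in all 7 Lhx1 cells (median 89.6), beside 0 to 137 RPKM in the others (median 85.9). Gad2, the other GABA-synthesising enzyme, was at 34.6 to 65.6 RPKM in 6 of the 7 and at 0.51 RPKM in cell 5. The vesicular GABA transporter Slc32a1 was at 10 RPKM or more in only 2 of 7 Lhx1 cells, cell 3 (41.7 RPKM) and cell 15 (14.4 RPKM), and in 8 of 18 others. The glutamate transporter Slc17a6 was at 0 in all 7 Lhx1 cells and reached 10 RPKM in 2 others, cells 7 and 27.

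**Figure D2:**
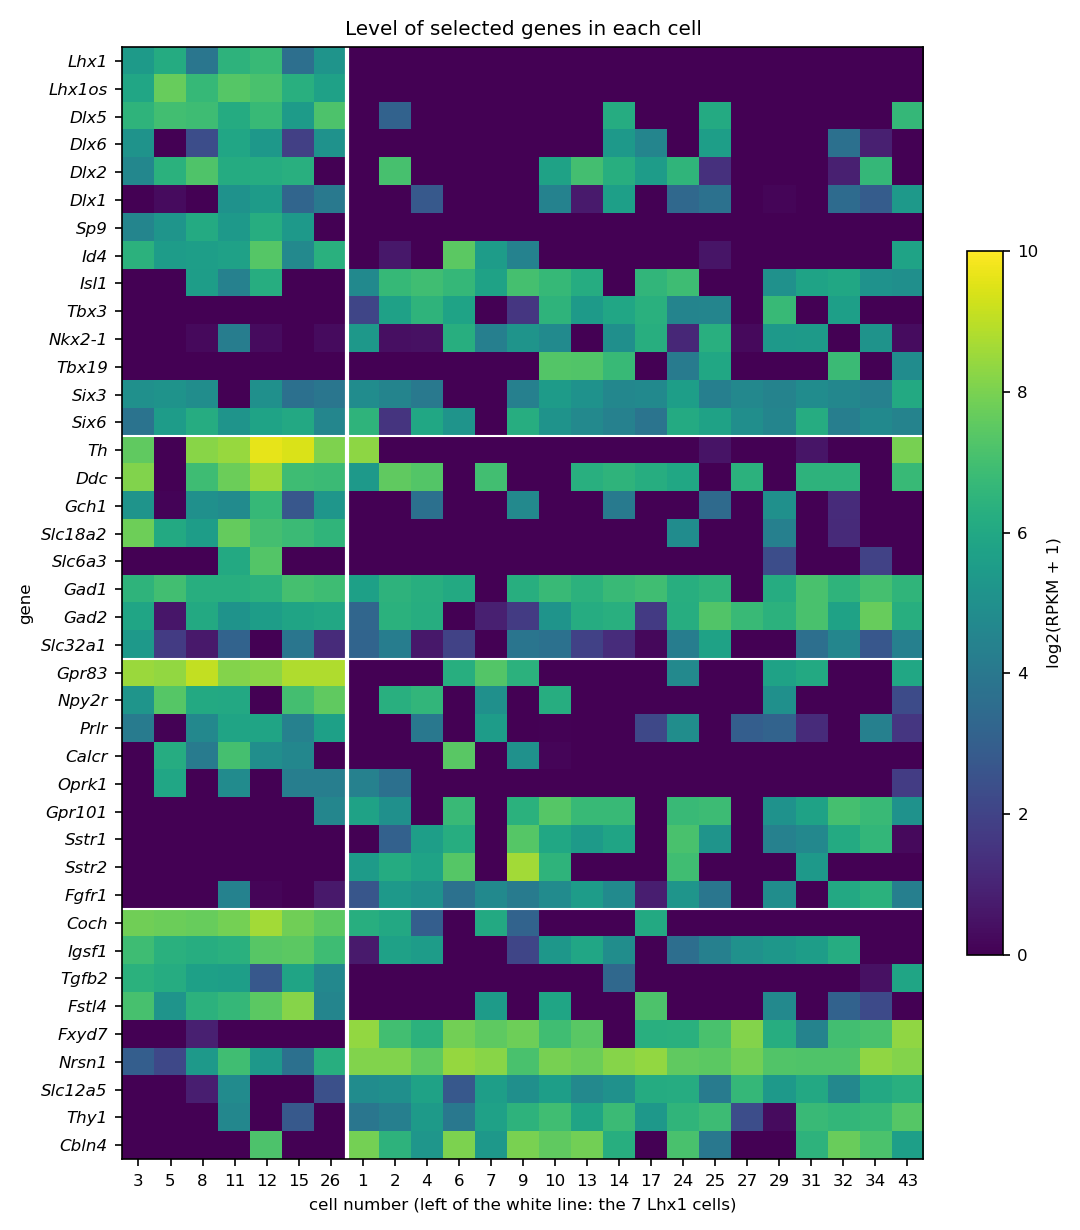
Level of 40 genes (rows) in each of the 25 cells (columns) as log2(RPKM + 1), dark for 0 and yellow for high, with the 7 Lhx1 cells left of the vertical white line and horizontal lines between transcription factors, transmitter genes, receptors and other genes. Cell 5 is dark for Th, Ddc and Gch1, Sp9 is dark in all 18 other cells, and Fxyd7 is dark in all Lhx1 cells and in cell 14.

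Among the lists of transcription factors the Dlx family had the largest median difference, and Dlx5 was already known as a marker of these cells. Of the 8 genes and antisense RNAs of the family, 5 were compared, with a median difference of 2.56. Dlx5, Dlx6 and Dlx2 were higher (3 genes) and none was lower, beside 3.87% and 2.37% over all genes. Dlx5 was at 90.8 RPKM in cell 3, 123 in cell 5, 119 in cell 8, 69.4 in cell 11, 105 in cell 12, 43.3 in cell 15 and 146 in cell 26, a difference of 5.33. Outside it reached 10 RPKM in 3 of 18 cells, at 72.2 RPKM in cell 14, 69.0 in cell 25 and 101 in cell 43, so the groups overlapped through these. Its neighbour Dlx6, at chr6:6863334-6868568 beside Dlx5 at chr6:6877805-6882085, was at 10 RPKM or more in 4 of 7 Lhx1 cells (highest 58.8 RPKM) and at 0 in cell 5, against 4 of 18 others. Dlx2 was at 23.8 to 149 RPKM in 6 Lhx1 cells, at 0 in cell 26, and at 10 RPKM or more in 7 of 18 others. Dlx1 and the antisense RNA Dlx6os1 had differences of 0.78 and 0.25. The libraries do not mark the strand, so reads of Dlx6 and of Dlx6os1 cannot be told apart where they overlap.

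Sp9 was listed above 0 in no cell without Lhx1. Sp9, a zinc finger factor known from interneurons of the olfactory bulb, was at 22.4 RPKM in cell 3, 36.1 in cell 5, 68.2 in cell 8, 39.9 in cell 11, 74.5 in cell 12, 41.1 in cell 15 and 0 in cell 26. In a list of 22 factors of dopamine neurons from the midbrain, olfactory bulb and hypothalamus, 5 were compared, with a median difference of 0.25. Of these, 2 were higher, Sp9 among them, and none was lower, beside 3.87% and 2.37% over all genes. Id4, which binds and blocks basic helix-loop-helix factors, was at 25.2 to 164 RPKM in all 7 Lhx1 cells and at 10 RPKM or more in 4 of 18 others, with a difference of 4.61.

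Beside Lhx1, LIM genes mostly differed by less than 2, as did most of the 9783 genes. Of the 22 other genes for LIM-homeodomain factors and their partners, 12 were compared, with a median difference of -0.16. Lhx1os was higher and Isl1 lower, beside 3.87% and 2.37% over all genes. Isl1, a LIM-homeodomain factor of many arcuate neurons, was at 46.0 RPKM in cell 8, 19.8 in cell 11 and 73.5 in cell 12, at 0 in the other 4 Lhx1 cells, and at 10 RPKM or more in 15 of 18 others (median 57.8 RPKM), a difference of -2.76. The cofactor Ldb1, which bridges LIM factors, had a difference of 0.57.

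Factors that mark arcuate neurons in general were lower or differed by less than 2. Of 27 in the list, 13 were compared, with a median difference of -1.21. None was higher and Tbx3, Nkx2-1 and Tbx19 were lower, beside 3.87% and 2.37% over all genes. Tbx3, a T-box factor of arcuate neurons, was at 0 in all 7 Lhx1 cells and at 10 RPKM or more in 11 of 18 others (median 32.7 RPKM, highest 106). Nkx2-1, which sets up the ventral hypothalamus, was at 17.7 RPKM in cell 11 and at 0.23 RPKM or less in the other 6, against a median of 28.3 RPKM outside, a difference of -2.71. Tbx19, another T-box factor, was at 0 in all 7 Lhx1 cells and at 10 RPKM or more in 7 of 18 others. Six3 and Six6, homeodomain factors of the ventral forebrain and eye, were retained: Six6 was at 13.0 to 71.8 RPKM in all 7 Lhx1 cells, and Six3 was at 10 RPKM or more in 6 of 7, with differences of 0.60 and -0.30.

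**Figure D3:**
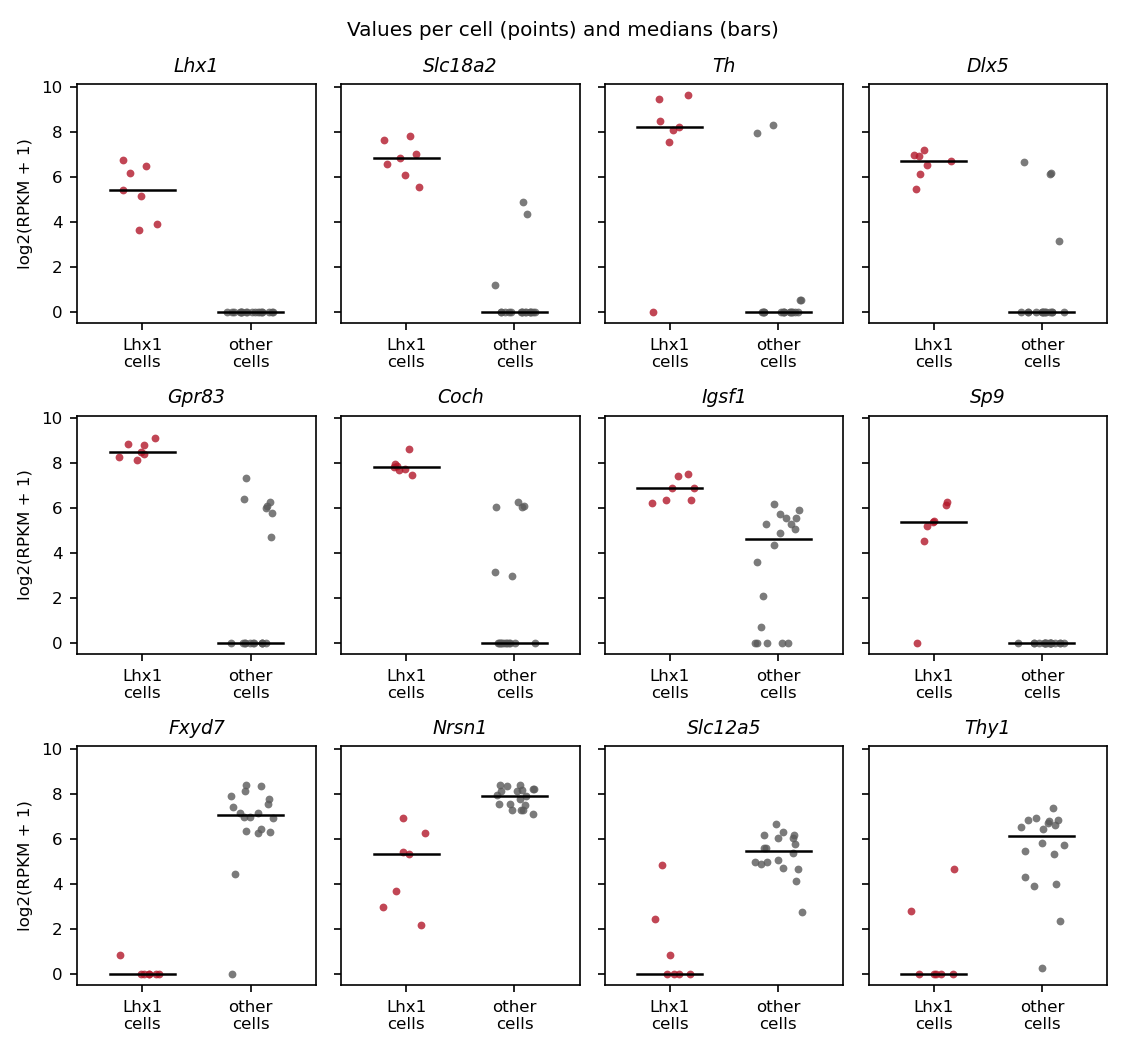
Values of 12 genes in each cell as log2(RPKM + 1), with the 7 Lhx1 cells in red, the 18 other cells in grey and black bars at the medians; points are spread sideways at random. Lhx1, Slc18a2, Gpr83, Coch and Igsf1 do not overlap between the groups in the upward direction and Nrsn1 does not in the downward one, while Th, Dlx5, Sp9, Fxyd7, Slc12a5 and Thy1 overlap through 1 or a few cells.

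Receptor genes differed in both directions. Of 41 receptors for peptides and small transmitters, 23 were compared, with a median difference of 0.29. Gpr83, Npy2r and Oprk1 were higher and Sstr1 and Sstr2 lower, beside 3.87% and 2.37% over all genes. Gpr83, a receptor for which a neuropeptide ligand has been proposed, was at 360.1 RPKM in cell 3, 329.7 in cell 5, 544 in cell 8, 280.1 in cell 11, 307 in cell 12, 446 in cell 15 and 450.5 in cell 26. Outside it was at 0 in 11 cells and at 24.8 to 158 RPKM in 7, so that the groups did not overlap, and the difference was 6.21. Npy2r, a receptor for neuropeptide Y and peptide YY, was at 35.8 to 187 RPKM in 6 Lhx1 cells and at 0 in cell 12, against 5 of 18 others at 10 RPKM or more, a difference of 3.86. Oprk1, the kappa opioid receptor, was at 18.2 to 60.2 RPKM in 4 of 7 Lhx1 cells and at 10 RPKM or more in 2 of 18 others.

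Of the somatostatin receptors, Sstr1 was listed at 0 in all 7 Lhx1 cells and was at 10 RPKM or more in 12 of 18 others (median 38.9 RPKM), and Sstr2 was at 0 in all 7 and at 10 RPKM or more in 8 of 18. Gpr101, an orphan receptor of the hypothalamus, was at 23.1 RPKM in cell 26 and 0 in the other 6 Lhx1 cells, against 14 of 18 others at 10 RPKM or more (median 68.2 RPKM), a difference of -4.25.

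Hormone and growth factor receptors included 1 that was higher and 2 that were lower among 18 compared of 25, with a median difference of -0.59. The shares over all genes were 3.87% higher and 2.37% lower. Calcr, the calcitonin receptor, was at 16.7 to 131 RPKM in 5 of 7 Lhx1 cells and at 0 in cells 3 and 26, while 2 of 18 others reached 10 RPKM, among them cell 6 at 171 RPKM. Its difference was 3.15. Fgfr1, a fibroblast growth factor receptor, was at 20.4 RPKM in cell 11 and at 0.59 RPKM or less in the other 6, against 14 of 18 others at 10 RPKM or more. The leptin receptor Lepr stayed under 10 RPKM in all 25 cells.

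Prolactin and dopamine feedback was read from 11 genes, of which 5 were compared, with a median difference of 1.53. Of these, 1 was higher and none lower, beside 3.87% and 2.37% over all genes. Prlr, the prolactin receptor, was at 16.9 RPKM in cell 3, 0.03 in cell 5, 24.4 in cell 8, 55.8 in cell 11, 56.3 in cell 12, 19.9 in cell 15 and 49.8 in cell 26. Outside 4 of 18 cells reached 10 RPKM, with 45.4 RPKM the highest, and the difference was 2.71. The dopamine autoreceptor Drd2 was at 82.4 RPKM in cell 15 and 71.9 in cell 26 and at 0 in the other 5 Lhx1 cells, and 1 other cell, cell 29, had it at 26.2 RPKM. The 2 Lhx1 cells with Drd2 were not those with Slc6a3.

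Ligands and modulators of the transforming growth factor beta family did not move together. Of 28 genes in the list, 15 were compared, with a median difference of -0.28. Of these, 5 were higher (Fstl4, Tgfb2, Fstl5, Smad7 and Bmp2) and none lower, beside 3.87% and 2.37% over all genes. Tgfb2, a secreted ligand, was at 83.1 RPKM in cell 3, 71.8 in cell 5, 49.8 in cell 8, 48.1 in cell 11, 5.75 in cell 12, 55.8 in cell 15 and 24.6 in cell 26. Outside only cell 43 (58.3 RPKM) reached 10 RPKM, and the difference was 4.76. Fstl4, a follistatin-like secreted protein gene, was at 22.6 to 287 RPKM in all 7 Lhx1 cells and at 10 RPKM or more in 4 of 18 others, a difference of 4.91. Fstl5, its relative, was at 10 RPKM or more in 5 of 7 and in 6 of 18, a difference of 3.00. Smad7, an inhibitor of the pathway inside the cell, was at 14.8 to 40.8 RPKM in cells 3, 5 and 15 and did not exceed 8.36 RPKM outside. It entered the comparison only through Lhx1 cells and could not have been counted as lower. Bmp2, a bone morphogenetic protein, was at 74.7 RPKM in cell 8, 39.0 in cell 11 and 132 in cell 15 and at 0 in the other 4; its difference of 2.01 turned to -0.19 when cells 8 and 15, with the least Lhx1, were moved to the other group.

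Coch and Igsf1 were the 2 remaining genes separated upward. Coch, which encodes the extracellular matrix protein cochlin, was at 227 RPKM in cell 3, 213 in cell 5, 205 in cell 8, 242 in cell 11, 386 in cell 12, 229 in cell 15 and 177 in cell 26. Outside it reached 10 RPKM in 4 of 18 cells, all between 64.8 and 75.4 RPKM, and the difference was 6.17. Igsf1, an X-linked membrane protein gene known from central hypothyroidism, was at 73.8 to 179 RPKM in the 7 (median 117) and at 0 to 71.1 RPKM in the others (median 24.2). The gap between the groups was therefore narrow, 0.05 on the log2 scale, and 11 of 18 other cells had Igsf1 at 10 RPKM or more.

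Further genes with large differences were metabolic or synaptic. Ucp2, a carrier of the inner mitochondrial membrane, was at 55.6 to 433 RPKM in all 7 Lhx1 cells and at 10 RPKM or more in 8 of 18 others, a difference of 4.66. Clybl, a mitochondrial enzyme gene, was at 43.3 to 136 RPKM in all 7 and at 10 RPKM or more in 5 of 18, a difference of 4.48. Cacng3, an auxiliary subunit of AMPA receptors, was at 46.4 to 150.4 RPKM in 6 of 7, at 0 in cell 5, and at 10 RPKM or more in 4 of 18 others. Ndor1, a flavin oxidoreductase gene, and Exosc8, a subunit of the RNA exosome, were each at 10 RPKM or more in 6 of 7 Lhx1 cells, against 1 and 3 of 18 others. Gm9866, at 83.4 to 153 RPKM in all 7 Lhx1 cells, was the most even of these and reached 94.4 RPKM outside.

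Fxyd7 had the largest difference downward, -6.56. It encodes a small membrane protein that regulates the sodium pump, and it was at 0.82 RPKM in cell 8 and at 0 in the other 6 Lhx1 cells. In the other cells it was at 0 in cell 14 and at 21.1 RPKM or more in 17 (median of the 18, 131 RPKM, highest 330.4 in cell 1). The share at 10 RPKM or more was thus 0 of 7 (exact Clopper-Pearson 95% interval 0 to 41.0%) and 17 of 18 (94.4%, 72.7 to 99.9%). Fxyd7 was picked for its difference in these same cells, so the gap between the shares is built in. The intervals speak only of counting error among the picked cells and are no test. The pump subunit gene Atp1b1 and the relative Fxyd6, looked up after these values were seen, had differences of -0.23 and -0.28.

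Nrsn1, which encodes the vesicle protein neurensin 1, was the 1 gene separated downward. It was at 6.93 RPKM in cell 3, 3.54 in cell 5, 41.4 in cell 8, 122 in cell 11, 39.5 in cell 12, 12.0 in cell 15 and 75.5 in cell 26. The other 18 cells held 138 to 338 RPKM (median 242), a difference of -3.15. The gap was narrow, 0.17 on the log2 scale between cell 11 and cell 9, and when the cells were rescaled to a common median the groups met. Its relative Nrsn2, looked up afterwards, was at 215 to 340.4 RPKM in Lhx1 cells and at 209 to 427 RPKM in the others.

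Slc12a5, the neuronal potassium chloride cotransporter that keeps chloride low, was at 27.6 RPKM in cell 11, 4.45 in cell 26, 0.81 in cell 8 and 0 in the other 4 Lhx1 cells. Outside it was above 0 in all 18 cells and at 10 RPKM or more in 17 (median 43.6 RPKM, highest 99.5), and the difference was -4.17. The chloride importer Slc12a2, looked up afterwards, stayed under 10 RPKM in all 25 cells. Thy1, a surface glycoprotein of mature neurons, was at 24.0 RPKM in cell 11, 5.96 in cell 15 and 0 in the other 5 Lhx1 cells, and at 10 RPKM or more in 16 of 18 others (median 71.4 RPKM), a difference of -4.40. The adhesion gene Ncam2 was at 0 in all 7 Lhx1 cells and at 10 RPKM or more in 13 of 18 others. Cell 11, the most deeply read of the 7 at an estimated 2988000 reads, held 8 of the 33 genes rare in Lhx1 cells, the most of any Lhx1 cell. Cell 12, the least deeply read at 1528000 reads, held 6, and cell 5 held 3 at 2257000 reads. The part of depth in this was not tested.

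Ion channels and receptors as a whole did not move one way. Of 64 in the list, 63 were in the table and 51 compared, with a median difference of -0.36. Of the 51, 4 were higher and 4 lower, beside 3.87% and 2.37% over all genes. Scn9a, a voltage-gated sodium channel, was at 34.8 to 47.4 RPKM in 6 Lhx1 cells and 3.92 RPKM in cell 3, and did not exceed 45.8 RPKM outside, where 11 of 18 cells reached 10 RPKM. Trpc6, a cation channel, was above 0.78 RPKM, the highest level outside, in 6 of 7 Lhx1 cells, among them cell 5 at 46.5 RPKM and cell 15 at 42.2 RPKM. Grik1, a kainate receptor subunit, and Gabre, a GABA receptor subunit, had differences of 2.64 and 2.19. On the lower side, Gria3, an AMPA receptor subunit, was at 11.6 RPKM in cell 11 and 0 in the other 6, while all 18 other cells had it above 0 (median 20.4 RPKM). The GABA receptor subunit Gabra5 was at 28.6 RPKM in cell 12 and 0 in the other 6, and Gabrg3 was at 0 in all 7, against 11 and 7 of 18 others at 10 RPKM or more. The remaining one was Kcnip1, a potassium channel partner, with a difference of -2.25.

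**Figure D4:**
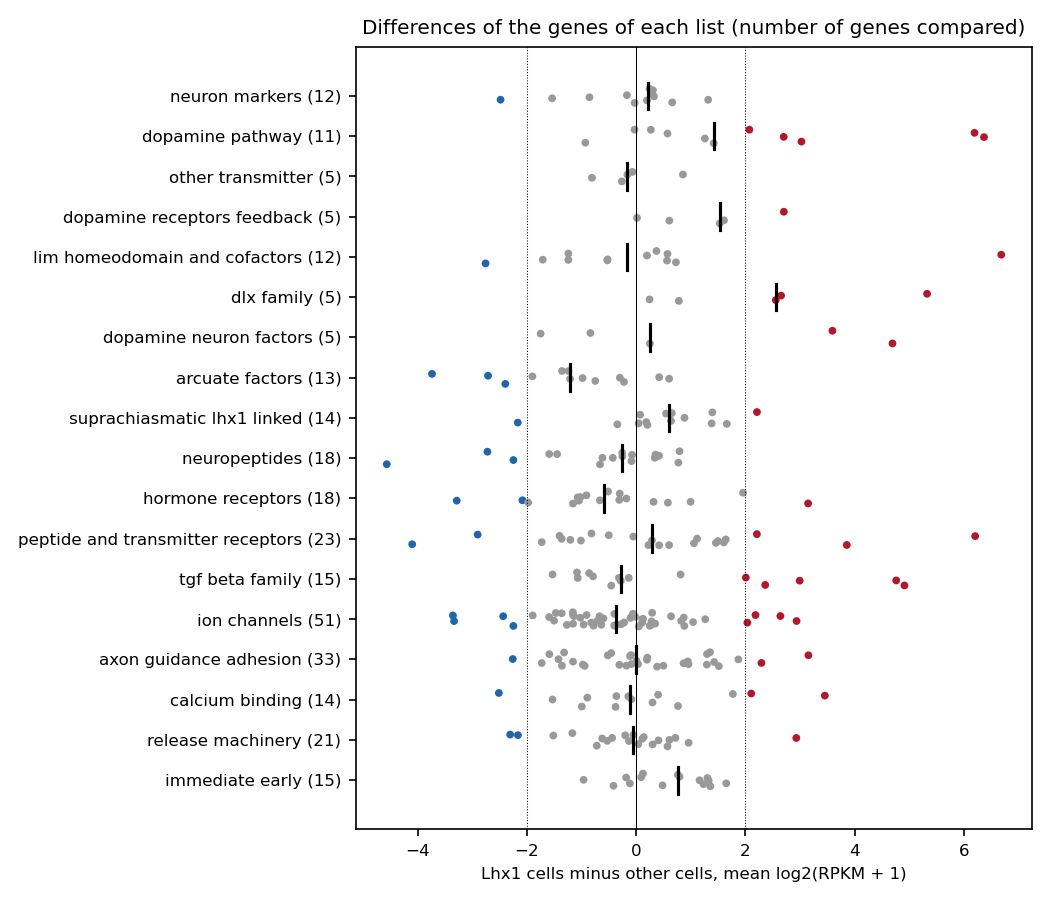
Difference of the means of log2(RPKM + 1), Lhx1 cells minus other cells, for each compared gene of 18 lists (number compared in parentheses; Lhx1 itself left out), with black bars at the list medians and dotted lines at 2 and -2. Genes past these lines are red or blue; the medians of the Dlx family (2.56), dopamine receptors and feedback (1.53) and the dopamine pathway (1.42) lie farthest to the right and that of the arcuate factors (-1.21) farthest to the left.

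Neuropeptide genes gave no common signature. Of 36 peptides, cerebellins and granins, 18 were compared, with a median difference of -0.25. None was higher and Cbln4, Sst and Cartpt were lower, beside 3.87% and 2.37% over all genes. Cbln4, a synapse organiser, was at 145 RPKM in cell 12 and at 0 in the other 6, against 15 of 18 others at 10 RPKM or more (median 87.0 RPKM), a difference of -4.57. Somatostatin (Sst) was at 0 in all 7 Lhx1 cells, and in the others it was at 709.5 to 1577 RPKM in 5 cells and at 0 in 13. Cartpt was at 529 RPKM in cell 12 and at 1.68 RPKM or less in the other 6, against 9 of 18 others at 10 RPKM or more. Penk, the enkephalin precursor, was at 316 RPKM in cell 3, 408 in cell 12 and 138 in cell 15 and at 0 in the other 4, and 7 of 18 others reached 10 RPKM. Ghrh, growth hormone releasing hormone, was listed above 0 only in cells 11 (60.5 RPKM) and 12 (8.97 RPKM). The granin genes Chga, Chgb, Scg2 and Scg5, cargo of dense-core vesicles, were at 10 RPKM or more in all 25 cells.

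Of 23 release and processing genes, 21 were compared, with a median difference of -0.05. Stx1a was higher and Pcsk1 and Pcsk2 were lower, beside 3.87% and 2.37% over all genes. Pcsk1, a convertase that cuts prohormones, was at 0 in all 7 Lhx1 cells and at 10 RPKM or more in 6 of 18 others. Pcsk2, the related convertase, was at 23.4 RPKM in cell 12 and at 7.30 RPKM or less in the other 6, against 11 of 18 others at 10 RPKM or more. Stx1a, a plasma membrane SNARE protein of neurotransmitter release, was at 61.7 to 240 RPKM in 6 Lhx1 cells and at 0 in cell 12, a difference of 2.93.

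Of 15 calcium-binding protein genes, 14 were compared, with a median difference of -0.12. S100a10 and Scgn were higher and Calb1 lower, beside 3.87% and 2.37% over all genes. Scgn (secretagogin) was at 349 RPKM in cell 5, 164 in cell 8 and 64.6 in cell 15, and at 1.36 RPKM or less in the other 4 Lhx1 cells. Calbindin (Calb1) was at 45.0 RPKM in cell 11 and 109 in cell 12 and at 0 in the other 5, so no Lhx1 cell held both Scgn and Calb1 at 10 RPKM or more. S100a10 was at 52.1 to 296 RPKM in 6 of 7 and at 0 in cell 3. Of 51 axon guidance and adhesion genes, 33 were compared, with a median difference of 0.01. Lrrtm1 and Cdh13 were higher and Cntn5 was lower, again beside 3.87% and 2.37% over all genes. Lrrtm1, a postsynaptic adhesion protein gene, was at 37.4 to 328 RPKM in 6 of 7, a difference of 3.16.

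Genes linked to Lhx1 or to the clock in the suprachiasmatic nucleus were compared for 14 of 19. Syt10, a synaptotagmin enriched in that nucleus, was higher and Rgs16, a regulator of G protein signalling, was lower, beside 3.87% and 2.37% over all genes. The median difference was 0.59. Syt10 was at 20.96 to 124 RPKM in 5 Lhx1 cells and at 0 in cells 3 and 5, against 7 of 18 others at 10 RPKM or more. Rgs16 was at 0 in all 7 and at 10 RPKM or more in 6 of 18 others. The peptide Vip, a marker of the nucleus, was at 0 in all 25 cells. The clock genes Per1 and Dbp had differences of 0.04 and -0.34. Of 16 immediate early genes, which are switched on by activity and by dissociation of tissue, 15 were compared, with a median difference of 0.77. None passed 2 in either direction, beside 3.87% and 2.37% over all genes, so this count over 15 genes says little about them. Fos was at 354 to 567 RPKM in the Lhx1 cells and at 0 to 781 RPKM in the others.

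The 7 cells were not uniform. Over the 4488 genes with a median of 10 RPKM or more in the Lhx1 cells, the median standard deviation of log2(RPKM + 1) among them was 1.87. Gpr83, Coch and Gm9866 varied far less, with standard deviations of 0.35, 0.35 and 0.31. They were named for large differences upward, which favours genes without a 0 among the 7 cells, so a low spread is in part built in. Among the genes with the largest standard deviations were Rasd1, a small G protein gene, with 169 to 415 RPKM in 5 cells and 0 in cells 11 and 12, and Nefl, a neurofilament gene, with 48.6 to 241 RPKM in 4 cells and 0 in cells 3, 5 and 15. Nefl was at 23.1 RPKM or more in all 18 other cells, and it was the 1 lower gene among the 12 neuronal markers (difference -2.48). Over 9783 genes, Pearson correlations of log2(RPKM + 1) had a median of 0.505 (0.456 to 0.532) over the 21 pairs of Lhx1 cells, 0.470 (0.399 to 0.544) over the 126 pairs of an Lhx1 cell with another and 0.476 (0.415 to 0.543) over the 153 pairs of other cells. These ranges overlap widely, the genes are not independent, and pairs share cells and depth. The cell most like cells 8 and 12 was cell 1, which lacks Lhx1, and for the other 5 it was another Lhx1 cell.

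The sets found by detection were also counted per cell. They were chosen on these same cells, so the separation is built into them and does not show how sharply the cells differ. Of the 9 genes other than Lhx1 that were common in Lhx1 cells, 7 to 9 were at 10 RPKM or more in each Lhx1 cell and 0 to 3 in each other cell. Cell 43, with 3, held Th, Dlx5 and Tgfb2 at 248, 101 and 58.3 RPKM without Lhx1, Lhx1os, Slc18a2 or Sp9. It had the fewest genes at 10 RPKM or more of all cells, 3843, and without it the counts of higher and lower genes were 360 and 245. Of the 33 rare genes, 0 to 8 were at 10 RPKM or more in each Lhx1 cell and 18 to 29 in each other cell.

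**Figure D5:**
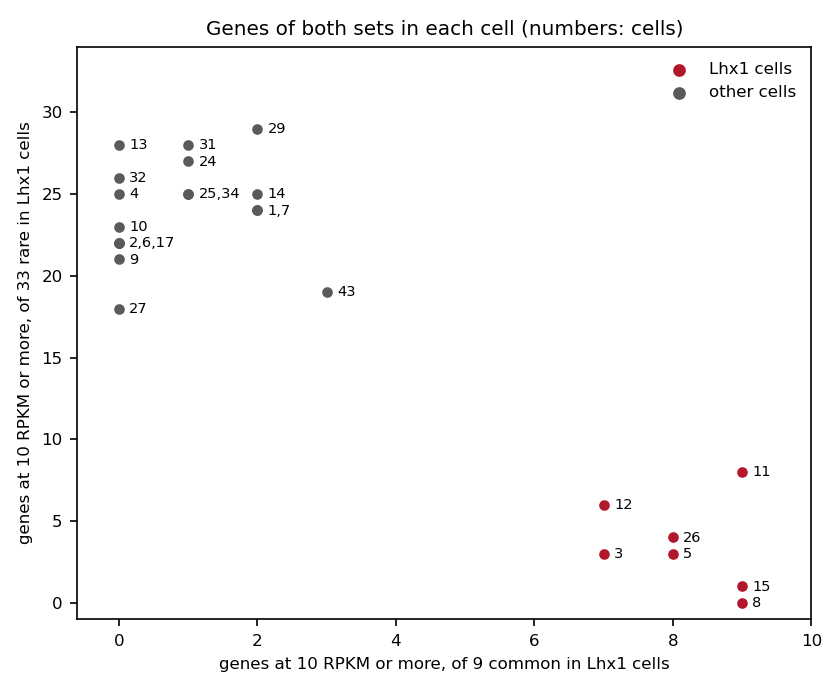
For each cell, the number of the 9 genes common in Lhx1 cells at 10 RPKM or more (horizontal axis) against the number of the 33 genes rare in them (vertical axis), with Lhx1 cells in red, other cells in grey and numbers naming the cells. Lhx1 cells lie at 7 to 9 and 0 to 8, the others at 0 to 3 and 18 to 29, with cell 43 nearest; both sets were chosen on these cells.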

How the data were processed

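The table that the authors deposited is called gene counts but holds RPKM values per gene and cell, since its numbers have decimals and low ones, multiplied by exon length, fall on steps of whole reads. The submitters' processing notes name featureCounts 1.4.6, SAMtools 0.1.19, Picard 2.5.0, TopHat2 2.0.14 and bcl2fastq, and the builds GRCm38 and mm10, without role or order. In the median cell 10 RPKM corresponds to 18.2 reads of a 1 kb gene, and to more for longer genes.

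Of 33082 rows, 26 with date numbers for names were dropped, and 755 symbols found on several rows were reduced to the row of highest sum, leaving 30903. Depth per cell was estimated from the steps, with GENCODE M21 exon lengths for 22715 symbols (73.5%). The estimator erred by at most 0.11% on data simulated with these same lengths, so an error in the lengths themselves is not covered. In the real cells the score of the steps, 1 where all values fall on whole reads, was only 0.291 to 0.436. Multiples of a depth fit as well, so the smallest depth near the best score was taken. Read numbers given above are therefore rough. Values were compared with pandas 2.3.3, numpy 2.4.6 and scipy 1.17.1, with a pseudocount of 1 RPKM.

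The members and gene lists were chosen with earlier results of these data known. Genes named are those of the lists, the 15 with the largest differences each way, up to 15 of each other count, and the 10 most variable within the Lhx1 cells. Fxyd6, Atp1b1, Nrsn2 and Slc12a2 were added after values were seen. Some genes that this rule would name are not reported here.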

Additional observations from a re-analysis of the deposited data

Results flagged for a closer look

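For 108 genes named above and 3 measures per cell (estimated reads, genes at 10 RPKM or more, and Malat1), the highest or lowest of the 7 Lhx1 cells was examined for a gap to its neighbour that is large beside the range of the 7. Of these 111, 24 had such a cell, where chance flags about 1 in 20 for normally spread values, and many of these genes are at 0 in most of the cells. The cell was cell 12 in 9 cases and cell 11 in 6.

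Cell 12 stood above the others in RPKM for Gch1 (102), Slc6a3 (157), Cartpt (529), Cbln4 (145), Gabra5 (28.6), Calb1 (109), Pcsk2 (23.4), Coch (386) and Id4 (164). Cell 11 did so for Nkx2-1 (17.7), Ghrh (60.5), Fgfr1 (20.4), Gria3 (11.6), Thy1 (24.0) and Slc12a5 (27.6). Cell 3 was highest for Maoa (78.7 RPKM) and Slc32a1 (41.7 RPKM) and lowest for Scn9a (3.92 RPKM). Cell 5 was highest for Maob (261 RPKM) and Dlx6os1 (13.4 RPKM). Cell 8 was highest for Fxyd7 (0.82 RPKM) and Tmem158 (94.1 RPKM), and cell 26 for Cntn5 (18.7 RPKM) and Gpr101 (23.1 RPKM).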

How the results depend on the processing

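The counts of genes depended on the setting. With a pseudocount of 0.1 RPKM in place of 1, 1108 genes were higher and 898 lower, and with 10 RPKM 26 and 9 were; with medians of log2 values in place of means the counts were 1079 and 745. Without the cells with Malat1 under 20 RPKM, 682 genes were higher, 3 separated downward, 54 common in Lhx1 cells and rare elsewhere, and 50 the reverse. With Lhx1 at 20 RPKM or more as the rule, which leaves 5 cells, 2 genes were separated upward, 0 downward, and 29 common in Lhx1 cells. Of the 6 genes separated upward with all 7 cells, only Lhx1, which makes the groups, was then separated, and 5 of the 10 common genes were then common. With cells rescaled to the same median, 0 genes were separated downward, and with detection at 20 RPKM 19 were rare in Lhx1 cells. Leaving out each Lhx1 cell in turn gave 394 to 459 genes higher, 213 to 312 lower, 6 to 8 separated upward, 1 to 3 downward (3 without cell 11), 13 to 23 common and 45 to 52 rare. Fewer Lhx1 cells loosen the detection and separation counts by construction, and a separated gene cannot stop being separated when cells are left out; the causes of the other shifts were not tested. Cell 43 was left out as a setting chosen after seeing the data. Lhx1 at 5 RPKM or more, or above 0, gave the same 7 cells. Of the 84 named genes counted as higher or lower, Bmp2 alone changed sign, to -0.19 with Lhx1 at 20 RPKM or more, and 59 fell under 2 in at least 1 of 16 settings. Differences of the 15 leading genes each way, such as 3.97 to 8.63 for Th, 3.38 to 9.00 for Slc18a2 and -9.36 to -3.64 for Fxyd7, kept their direction. No paired analysis was possible because the cells carry no numbers shared between groups.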
